A study of Canis lupus familiaris with 15 samples.

Results

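The 10 genes described here had been picked as higher in 3 relapse aspirates of 1 dog with lymphoma, named Rosco, than in at least 1 of 3 other aspirates of the same dog. They are OOEP, OAZ3, RHPN2, TFAP2B, EDN3, BHLHE41, GUCY1B1, KCNJ12, ADORA2B and CYP3A26, and they had been described as genes foreign to lymph node or lymphoma tissue. All 10 of 10 were found on the array through the RefSeq identifiers of its probes, as 12 of 43603 probes. They are 10 of 1357 genes that carry a symbol and 10 of 36604 targets in all. The relapse values therefore chose the genes, and those values are given here as a description with no test. The question is whether the same genes were also on in the tumour taken after death and in lymphomas of other dogs.

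RNA of 15 samples from 5 dogs was hybridised to 1-colour Agilent arrays, 1 sample to an array. Skin came from MalcolmX and Rosco (2 samples). Biopsies of original, drug-resistant lymphoma came from 4 dogs, MalcolmX, Jake, Rosco and Dog Y, and Thai, titled naive, gave the 1 drug-sensitive biopsy. MalcolmX gave 1 further tumour aspirate after metformin, a diabetes drug. Rosco gave 6 aspirates and a tumour sample taken after death. The aspirates were 1 after failed chemotherapy and before metformin, 1 in remission after metformin, 3 in relapse after metformin, and 1 labelled as a second drug-resistant tumour. In their titles the 3 relapse samples read no remission. Of the resistant biopsies, those of Rosco and Dog Y carry a second label that places them before treatment. The labels state neither age nor lymphoma subtype. Rosco supplied 9 of the 15 arrays, so the 3 relapse aspirates show the spread within 1 dog and not between dogs. Nothing in the labels says that they came from separate tumours, and their spread may be technical. All p-values below measure only the spread between these samples.

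A value is the log2 signal of a probe relative to the 75th percentile of all probes on the same array, so a gene at 0 is as bright as that percentile. A gene is called on when the scanner software marked its probe as well above background. On a single array between 64.4% and 74.1% of 36460 targets were on. Levels of different probes are not comparable, so each gene is compared only with itself across arrays. In these bulk samples fewer cells of a type and less RNA per cell cannot be told apart. The arrays lie on 4 slides. Slides 1 and 2 held the skin samples, the resistant biopsies and the MalcolmX aspirate. Slide 3 held the failed-chemotherapy aspirate, relapse aspirate 1, the post-mortem tumour and the Thai biopsy, and slide 4 the other 4 aspirates of Rosco. Slides 3 and 4 were scanned on another day than slides 1 and 2. None of the arrays on slides 3 and 4 shares a slide or scan day with any skin sample, resistant biopsy or the MalcolmX aspirate. In comparisons across them, for the relapse aspirates, the post-mortem tumour and the Thai biopsy alike, slide, scan day and group cannot be told apart. Between aspirates and biopsies the sampling method differs too.

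The genes come from unrelated pathways. OOEP (NM_001113457) encodes an oocyte protein of the subcortical maternal complex, which an early embryo needs, and OAZ3 (NM_001134951) a sperm-specific antizyme, an inhibitor of polyamine synthesis. TFAP2B (NM_001002977) and BHLHE41 (NM_001002973) encode transcription factors, the first of neural crest and kidney, the second a repressor of the circadian clock that is also known from B cells. EDN3 (NM_001002942) encodes the peptide endothelin 3, which guides melanocyte and enteric neuron precursors, and ADORA2B (NM_001002944) a low-affinity adenosine receptor. RHPN2 (NM_001003008) encodes rhophilin 2, which binds the GTPase RHOA, and GUCY1B1 (NM_001018034) the beta subunit of soluble guanylate cyclase, the nitric oxide sensor. KCNJ12 (NM_001242714) encodes an inwardly rectifying potassium channel of heart muscle. CYP3A26 (NM_001003338) encodes a dog liver enzyme of the cytochrome P450 3A family, which oxidises many drugs. Lymphoma tissue also holds T cells, macrophages and stroma, and the skin, gland or muscle around it can enter a biopsy.

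Probes were on as follows, each count beside the share of all targets on in the same array or arrays. All 10 were on in the post-mortem tumour, where 74.1% of all targets were, and in each relapse aspirate (69.3%, 69.7% and 66.2% of targets). After failed chemotherapy 8 of 10 were on (70.2%), in remission 7 of 10 (71.1%) and in the second resistant aspirate 8 of 10 (68.8%). In both skin samples 9 of 10 were on (64.1% of all targets), in all 4 resistant biopsies 7 of 10 (57.8%), and in the Thai biopsy and the MalcolmX aspirate 9 of 10 each (72.0% and 72.7%). In all, 6 of the 10, namely OOEP, OAZ3, RHPN2, BHLHE41, GUCY1B1 and ADORA2B, were on in all 15 arrays, against 55.3% of all targets. CYP3A26 was the 1 gene on in the relapse and post-mortem samples and on no other array. Each of the other 9 was on in at least 3 of the 4 resistant biopsies. TFAP2B was off in the Jake biopsy, the remission aspirate and that after failed chemotherapy, EDN3 in the Dog Y biopsy and the remission aspirate, and KCNJ12 in the second resistant aspirate. As most targets on the array were on in the same samples, the counts are no result about these genes, and whether a gene is foreign to the tissue cannot be read from them. The levels of all 10 genes are drawn by array, with dim probes as open circles.

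**Figure D1:**
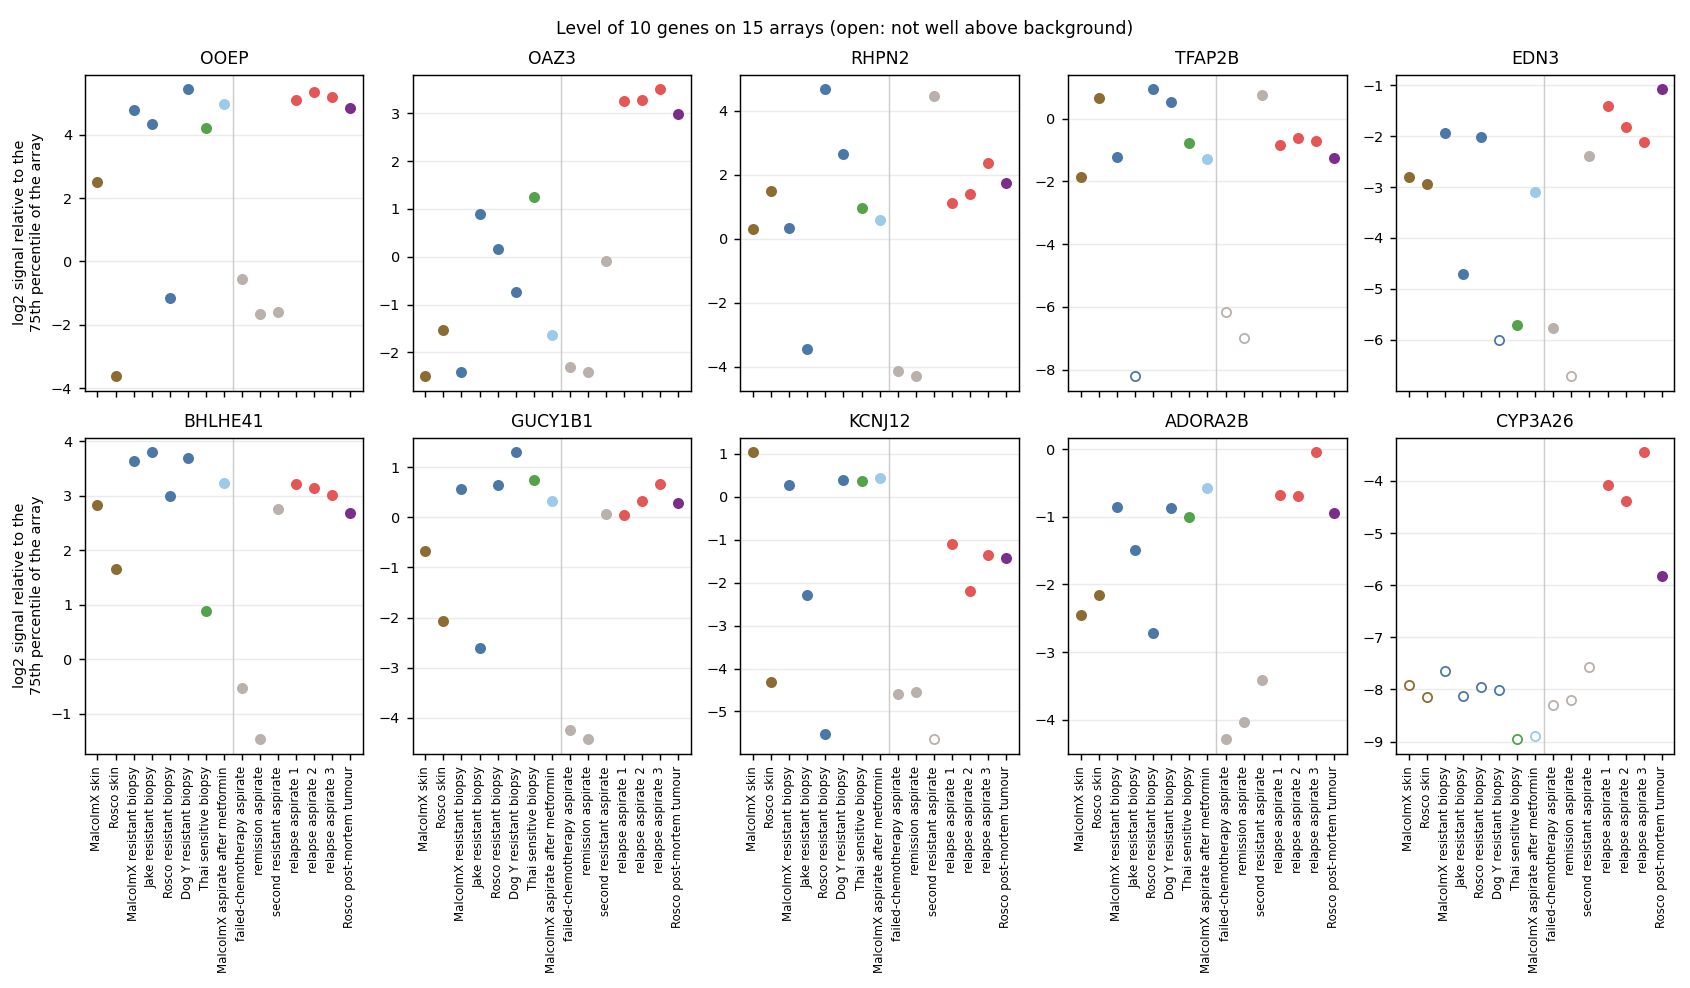
Level of the 10 genes (log2 signal relative to the 75th percentile of the array, vertical axis, scaled separately for each gene) on the 15 arrays, coloured by group (skin brown, resistant biopsies blue, sensitive biopsy green, MalcolmX aspirate light blue, 3 other Rosco aspirates grey, relapse aspirates red, post-mortem tumour purple). Open circles mark probes not well above background, which for CYP3A26 are 11 of the 15 arrays, and the grey line separates the Rosco aspirates and the post-mortem tumour from the rest.

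CYP3A26 was on in the 3 relapse aspirates (−4.08, −4.39 and −3.44) and in the post-mortem tumour (−5.83). It was not well above background on the other 11 arrays, where the readings ran from −8.95 to −7.58. The post-mortem value minus the relapse mean of −3.97 (SD 0.48, n = 3) was −1.86. Because the other probes were dim, folds are lower bounds. In each dim array the probe was set at the dimmest signal called well above background there, or at its own reading if that was brighter, and compared with the mean of the brighter group. Relapse aspirates were at least 2.97-fold higher than the second resistant aspirate, at least 4.42-fold higher than the failed-chemotherapy aspirate and at least 4.18-fold higher than the remission aspirate. They were at least 3.66-fold higher than the resistant biopsies and at least 3.93-fold higher than skin. The biopsies and skin lie on other slides scanned on another day, so there slide, scan day and group cannot be told apart. For the post-mortem tumour the bound was at least 2.02-fold against the MalcolmX aspirate and at least 2.05-fold against the Thai biopsy, but only 1.01-fold against the resistant biopsies. Against the biopsies the post-mortem signal was thus about as bright as the dimmest signals called well above background.

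The paralog CYP3A12, the other dog enzyme of this family on the array, was highest in the same 4 samples. It stood at 1.25, 0.91 and 1.65 in the relapse aspirates and at 0.51 in the post-mortem tumour. The remaining 11 arrays lay between −3.23 in the Dog Y biopsy and −0.89 in Rosco skin, so the groups did not overlap. The share of all targets that separate in this way was not counted, so nothing is read from this. CYP3A12 was on in all 15 arrays. The genes are close paralogs, so a probe for either may bind both transcripts, and the separate levels are uncertain. Over 15 arrays r was 0.898, with 11 of the CYP3A26 readings dim. Among other P450 genes CYP2E1, a liver enzyme, was dim on all 15 arrays (−8.26, −8.11 and −7.99 in relapse). CYP2B6, another drug-metabolising liver enzyme, was at −5.46, −4.45 and −4.92 in relapse and −5.40 after death and between −5.42 and −4.49 in the resistant biopsies. POR, the electron donor of these enzymes, was at −1.93, −2.10 and −2.30 in relapse and between −2.62 and −1.43 in the biopsies. The 3 of 10 liver markers with a symbol summed to 0.126 to 0.343 in relapse and 0.124 after death, in multiples of the 75th percentile. The sum was 0.0632 to 9.84 in the resistant biopsies and 11.7 in the second resistant aspirate. SERPINA1 carried the high sums, at 3.30 in the Rosco biopsy and 3.54 in the second resistant aspirate. APOH went another way. It was on in relapse aspirates 1 and 2 (−5.10 and −4.95), after death (−5.30), in the other Rosco aspirates and in the Thai biopsy (−6.44). In relapse aspirate 3 and on all arrays of slides 1 and 2, the resistant biopsies among them, APOH was not well above background. As slides 1 and 2 share a scan day, tissue and scan day cannot be told apart for APOH. The sum therefore does not rank these samples by liver transcripts. The pattern of being on in exactly the relapse and post-mortem arrays was found in 5 of 36460 targets (0.0137%), of which CYP3A26 was the 1 with a symbol. Relapse values chose CYP3A26, so nothing is read from this count.

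OAZ3 was also highest in relapse and after death, though it was on everywhere. The relapse aspirates stood at 3.25, 3.27 and 3.51 and the post-mortem tumour at 2.98. The next arrays were the Thai biopsy at 1.25 and the Jake biopsy at 0.90, so these 4 samples of Rosco did not overlap with the other 11. Relapse values chose OAZ3, and the share of all targets that separate in this way was not counted, so nothing is read from this. The biopsies of Rosco, Dog Y and MalcolmX were at 0.17, −0.74 and −2.41, skin at −2.50 in MalcolmX and −1.54 in Rosco, and the MalcolmX aspirate at −1.63. The failed-chemotherapy and remission aspirates (−2.31 and −2.41) were at the level of skin, while the second resistant aspirate, at −0.09, was close to the Rosco biopsy. The relapse mean of 3.34 (SD 0.15, n = 3) lay 5.66, 5.76 and 3.44 above the failed-chemotherapy, remission and second resistant aspirates.

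The genes with levels most like OAZ3 over 15 arrays were DAPK1, a death-associated kinase (r = 0.846), TFRC, the transferrin receptor (r = 0.846), and TCOF1, a nucleolar protein (r = 0.840). Over the 9 arrays that did not choose the genes r was 0.780, 0.846 and 0.882. Of these genes TCOF1 alone was among the top 3 there. The other polyamine and testis genes with a symbol were not highest in relapse. The antizymes OAZ1 and OAZ2, which occur in most tissues, reached at most 6.11 and 0.75 in relapse. Both were inside their ranges on the other arrays, which reached 6.39 for OAZ1 and 2.76 for OAZ2. The antizyme inhibitor AZIN1 (1.52 to 1.81 in relapse) and the mitochondrial arginase ARG2 (−2.40 to −1.36) were highest elsewhere, at 3.02 and 0.58. Among sperm and testis genes PRM2, a protamine of sperm chromatin, lay at −1.55, −2.04 and −2.91 in relapse and between −3.23 and −1.51 elsewhere. INSL3, a testis hormone, lay at −2.49 to −1.98 in relapse. LDHC, the sperm lactate dehydrogenase, was not well above background in any relapse aspirate.

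OOEP was high in most lymphoma samples and low in the samples with the least MS4A1, the gene of the B cell antigen CD20. It stood at 5.11, 5.33 and 5.19 in relapse, at 4.85 after death, at 4.21 in the Thai biopsy and at 4.95 in the MalcolmX aspirate. The biopsies of MalcolmX, Jake and Dog Y lay at 4.78, 4.35 and 5.44. The 3 relapse values lie inside the range of those lymphomas of other dogs. The other arrays were lower, with 2.51 in MalcolmX skin, −0.56 after failed chemotherapy, −1.67 in remission, −1.58 in the second resistant aspirate, −1.15 in the Rosco biopsy and −3.62 in Rosco skin.

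Of the B cell markers MS4A1 and CD40 were high and low in largely the same arrays as OOEP, and BCL6 was not. MS4A1 was at 2.18, 2.33 and 1.78 in relapse and 2.04 after death. It lay between 2.68 and 3.53 in the Thai biopsy, the MalcolmX aspirate and the biopsies of MalcolmX, Jake and Dog Y. It was 0.84 in MalcolmX skin and stood at 0.40 after failed chemotherapy and 0.38 in remission. In Rosco skin, the Rosco biopsy and the second resistant aspirate MS4A1 was not well above background (−8.04, −7.16 and −6.73). CD40, a B cell costimulator, was at 4.64, 4.56 and 3.95 in relapse, at −0.43 in the Rosco biopsy, −0.90 in Rosco skin and −1.04 in the second resistant aspirate. BCL6, which encodes a germinal centre repressor, was not well above background in any relapse aspirate (−6.81, −7.45 and −6.76) or resistant biopsy and was brightest in skin (−3.07 and −3.03). The 3 of 15 listed B cell markers with a symbol (MS4A1, CD40 and BCL6) summed to 18.9 to 29.5 in relapse, 23.4 after death and 0.527 in the second resistant aspirate, a sum that CD40 and MS4A1 carry. In the resistant biopsies the sum ran from 0.761, in Rosco, to 40.7. That Rosco biopsy and the second resistant aspirate were rich in exocrine gland transcripts instead, with 7 of 14 listed gland markers summing to 448 and 579, against at most 37.3 on any other array. Of the genes with a symbol, TLR10, a Toll-like receptor of B cells, had the level most like that of OOEP (r = 0.987 over the 15 arrays and 0.995 over the 9 that did not choose the genes). For CD40 r was 0.945 over the 15 arrays. These arrays share dogs, slides and tissue makeup, so such a value is a description, and the part of B cell content in the level of OOEP was not tested.

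Of 20 genes listed for oocyte and maternal complex 4 others carried a symbol, and their highest values lay elsewhere. ZP3, a protein of the egg coat, stayed between −3.25 and −1.55 on all arrays. ZP2, its partner, lay at −2.40, −2.09 and −2.50 in relapse and was highest in MalcolmX skin at 1.20. GDF9, an oocyte growth factor, was at −5.59, −5.79 and −5.90 in relapse, the third of them not well above background. PADI6, an enzyme of the oocyte, was on in 1 of 15 arrays, the MalcolmX skin.

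**Figure D2:**
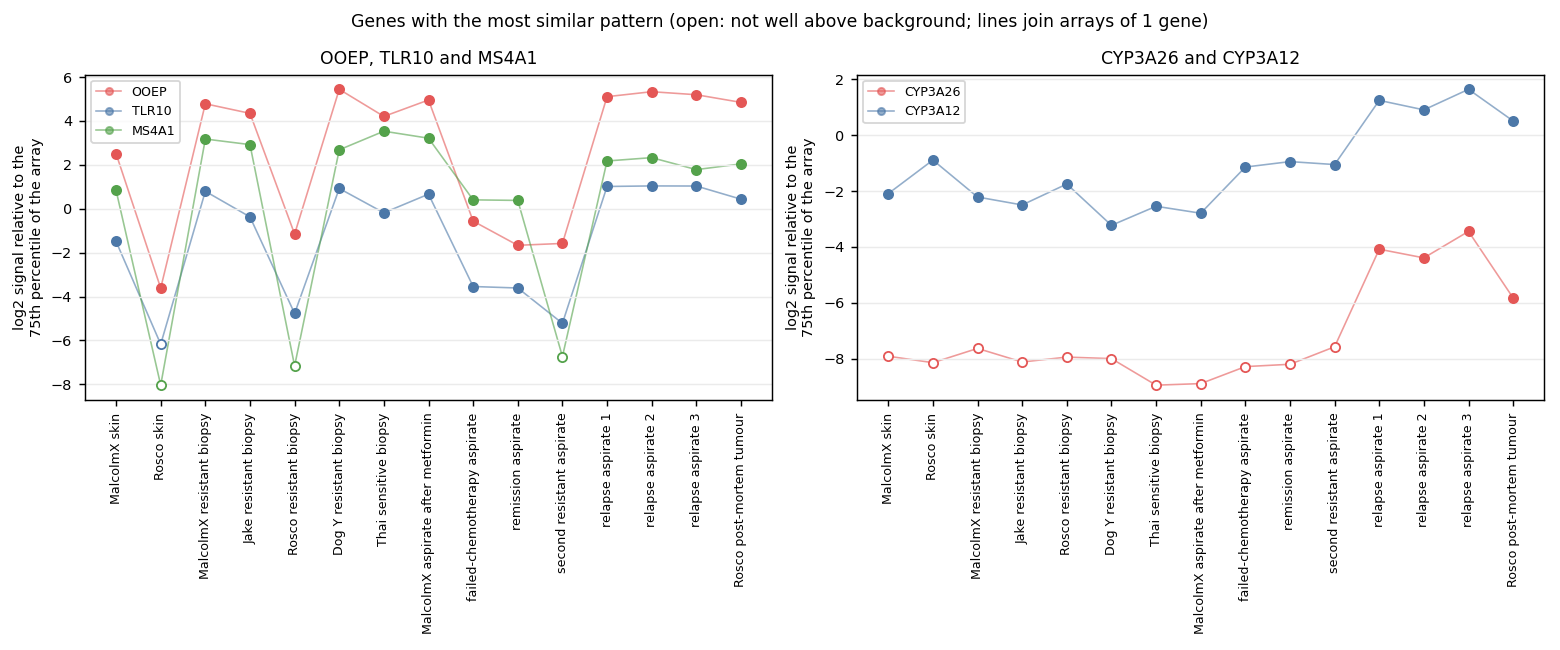
Level (log2 signal relative to the 75th percentile of the array) of OOEP with TLR10 and the B cell marker MS4A1 on the left and of CYP3A26 with its paralog CYP3A12 on the right, on 15 arrays. Open circles are probes not well above background and lines only join the points of 1 gene. All 3 genes on the left are low in Rosco skin, the Rosco biopsy and the second resistant aspirate, and both genes on the right are highest in the relapse aspirates and the post-mortem tumour.

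RHPN2 and TFAP2B formed a second pattern, in which relapse was not the highest state. RHPN2 was at 1.12, 1.41 and 2.38 in relapse and 1.74 after death. It was higher in the Rosco biopsy (4.69), the second resistant aspirate (4.48) and the Dog Y biopsy (2.64). The Rosco biopsy and the second resistant aspirate were rich in exocrine gland transcripts, with MS4A1 not well above background. The part of gland content in the level of RHPN2 was not tested. Skin was at 0.30 in MalcolmX and 1.49 in Rosco, the MalcolmX biopsy and aspirate at 0.33 and 0.59, and the Thai biopsy at 0.98. The 3 low arrays were the Jake biopsy at −3.45 and the aspirates after failed chemotherapy and in remission at −4.13 and −4.29. The relapse mean minus the second resistant aspirate was −2.84. The 3 probes of RHPN2 had r of 0.996 to 0.998 with one another over 15 arrays.

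TFAP2B was at −0.83, −0.62 and −0.71 in relapse and −1.26 after death. It was higher in the Rosco biopsy (0.94), the second resistant aspirate (0.74), Rosco skin (0.64) and the Dog Y biopsy (0.54). For TFAP2B too, the Rosco biopsy and the second resistant aspirate are the arrays rich in gland transcripts, and the part of gland content was not tested. The Thai biopsy was at −0.79, the MalcolmX biopsy, aspirate and skin at −1.23, −1.29 and −1.86. It was not well above background in the Jake biopsy (−8.20) nor in the aspirates after failed chemotherapy and in remission (−6.17 and −7.00), the same 3 arrays that were low for RHPN2. For TFAP2B relapse aspirates were at least 42.1-fold higher than the failed-chemotherapy aspirate and at least 39.8-fold higher than the remission aspirate, and skin was at least 45.5-fold and 43.0-fold higher than the same arrays. TFAP2B and RHPN2 had r = 0.937 over 15 arrays and 0.905 over the 9 arrays that did not choose them. The gene most like TFAP2B was PYGL, the liver glycogen phosphorylase (r = 0.961). Among neural crest genes SOX9 was at 1.91, 1.82 and 1.23 in relapse, within its range of 0.63 to 2.12 elsewhere. SNAI2 was low in relapse (−4.39, −4.38 and −5.30) and highest in Rosco skin (0.44), and the receptor gene RET lay between −5.29 and −3.30 on all arrays. Among the resistant biopsies Jake was lowest for 4 of the 10 genes, RHPN2, TFAP2B, GUCY1B1 and CYP3A26, as it was for 33.5% of targets, the CYP3A26 reading being dim. RHOA, the partner of rhophilin, varied little, between 1.84 and 2.93.

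GUCY1B1 was on in all arrays and near its usual tumour level in relapse. It stood at 0.04, 0.33 and 0.67 in relapse and 0.29 after death. The second resistant aspirate was at 0.07, the Thai biopsy at 0.74, the MalcolmX aspirate at 0.33, and the biopsies of MalcolmX, Rosco and Dog Y at 0.56, 0.65 and 1.30. Lower arrays were MalcolmX skin (−0.67), Rosco skin (−2.06), the Jake biopsy (−2.60) and the aspirates after failed chemotherapy and in remission (−4.24 and −4.42). A partner subunit had another pattern. GUCY1A1, an alpha subunit that pairs with GUCY1B1 to form an active enzyme, was not well above background in any relapse aspirate (−7.20, −6.78 and −8.21). GUCY1A1 was also dim in the Dog Y and Thai biopsies (−8.13 and −7.78), while it stood at 1.13 in the Rosco biopsy, 1.21 in the second resistant aspirate and −3.10 after death. The 3 relapse aspirates and the Dog Y and Thai biopsies thus had the beta subunit on with this alpha subunit not well above background. Whether another alpha subunit was present was not tested. NOS3, the endothelial nitric oxide synthase, was at 2.26, 2.31 and 1.89 in relapse and between 0.67 and 1.97 elsewhere. PDE5A, which degrades cyclic GMP, was at −4.35, −4.60 and −4.46 in relapse and reached −0.86 in Rosco skin. BIVM, named for a basic immunoglobulin-like motif, had the level most like GUCY1B1 over 15 arrays (r = 0.886). Over the 9 arrays that did not choose the genes r was 0.821, and BIVM was not among the top 3.

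EDN3 was dim to moderate on all arrays. It lay at −1.41, −1.82 and −2.12 in relapse and reached its highest value, −1.08, in the post-mortem tumour, above all 3 relapse aspirates. The biopsies of MalcolmX and Rosco were at −1.95 and −2.02, the second resistant aspirate at −2.39, skin at −2.81 and −2.95, and the MalcolmX aspirate at −3.10. The Jake and Thai biopsies (−4.71 and −5.70) and the failed-chemotherapy aspirate (−5.77) were lower. EDN3 was not well above background in the Dog Y biopsy (−5.99) or the remission aspirate (−6.71). Relapse aspirates were at least 19.0-fold higher than the remission aspirate, and 3.98 above the failed-chemotherapy aspirate on the log2 scale. EDNRB, the receptor of this peptide, was at −3.36, −4.31 and −4.34 in relapse, −2.26 after death and −1.20 in MalcolmX skin. EDN1, the vessel wall endothelin, was not well above background in the relapse aspirates. EDN2 stood at −4.42, −3.90 and −4.04 and EDNRA at −5.69, −5.05 and −6.08 there, the last of them dim. RLN2, a relaxin hormone, had the level most like EDN3 (r = 0.782).

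BHLHE41 was bright in nearly every sample. It stood at 3.21, 3.15 and 3.02 in relapse, 2.69 after death and 2.75 in the second resistant aspirate. The biopsies of MalcolmX, Jake, Rosco and Dog Y were at 3.64, 3.81, 3.00 and 3.70, the MalcolmX aspirate at 3.23, and skin at 2.83 and 1.66. The Thai biopsy was lower at 0.88, and the aspirates after failed chemotherapy and in remission lowest at −0.53 and −1.47. The relapse values thus lie among those of the resistant biopsies and do not exceed them. Of 26 clock genes listed, BHLHE41 was the 1 with a symbol here, so the others are not analysed here. XRCC1, a DNA repair scaffold, had the level most like BHLHE41 over 15 arrays (r = 0.874). Over the 9 arrays that did not choose the genes r was 0.676, and XRCC1 was not among the top 3.

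ADORA2B was at −0.67, −0.68 and −0.04 in relapse and −0.94 after death. The MalcolmX aspirate (−0.58), the biopsies of MalcolmX and Dog Y (−0.85 and −0.86), the Thai biopsy (−1.0) and the Jake biopsy (−1.48) were near it. Skin (−2.46 and −2.15) and the Rosco biopsy (−2.72) were lower, followed by the second resistant aspirate at −3.41 and the remission and failed-chemotherapy aspirates at −4.03 and −4.29. ADORA2A, the high-affinity receptor, lay at 2.28, 2.44 and 1.39 in relapse and at −2.38 in the second resistant aspirate. ADORA3 was at −2.17, −2.20 and −2.08 in relapse and at 1.03 after failed chemotherapy and 1.08 in remission. ADORA1 stayed between 0.64 and 1.49 and the nucleoside transporter SLC29A1 between 0.52 and 2.91. JMJD7, a lysyl hydroxylase, had the level most like ADORA2B over 15 arrays (r = 0.959). Over the 9 arrays that did not choose the genes r was 0.927, and JMJD7 was not among the top 3.

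KCNJ12 was at −1.09, −2.20 and −1.36 in relapse and −1.43 after death. KCNJ12 was brighter in MalcolmX skin at 1.05, the MalcolmX aspirate at 0.44, the Dog Y and MalcolmX biopsies at 0.39 and 0.28, and the Thai biopsy at 0.36. MalcolmX skin was rich in skeletal muscle transcripts, with 4 of 10 listed muscle markers summing to 180, against 5.56 in Rosco skin. That sum was 0.130 in the MalcolmX aspirate, 0.122 in the Thai biopsy and 0.101 to 1.39 in the resistant biopsies. The part of muscle content in the level of KCNJ12 was not tested. The Jake biopsy was at −2.29. Rosco skin (−4.32), the failed-chemotherapy and remission aspirates (−4.59 and −4.56) and the Rosco biopsy (−5.53) were low. In the second resistant aspirate KCNJ12 was not well above background (−5.65), and relapse aspirates were at least 15.9-fold higher. Within the relapse group its spread was wide (SD 0.58, n = 3). KCNJ2, the other inward rectifier with a symbol, was not well above background in relapse (−8.29, −7.88 and −6.75). LGALS4, a galectin, had the level most like KCNJ12 (r = 0.864).

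Across the contrast that chose the genes, the size of the difference depended on the aspirate taken as the other side. All 10 genes were higher in each relapse aspirate than in the failed-chemotherapy aspirate, as were 41.5% of 36460 targets, and higher than in the remission aspirate, as were 30.4%. Against the second resistant aspirate 7 of 10 were higher in all 3 relapse aspirates (33.1% of targets), and the same number lay above all 3 other aspirates at once (15.8%). As the genes were picked on this contrast, nothing is read from these counts. The 2 genes RHPN2 and TFAP2B were higher in the second resistant aspirate than in any relapse aspirate (44.2% of targets), and GUCY1B1 was 0.28 lower there than the relapse mean, less than the relapse spread (SD 0.32, n = 3). Within slide 3, relapse aspirate 1 exceeded the failed-chemotherapy aspirate by 3.50 for KCNJ12 to 5.67 for OOEP. Within slide 4, relapse aspirates 2 and 3 averaged 2.78 (KCNJ12) to 6.93 (OOEP) above the remission aspirate. Against the second resistant aspirate, on the same slide, the same 2 relapse aspirates averaged from −2.58 (RHPN2) and −1.40 (TFAP2B) to 6.84 (OOEP). These are the arrays that chose the genes, so the directions are a description.

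**Figure D3:**
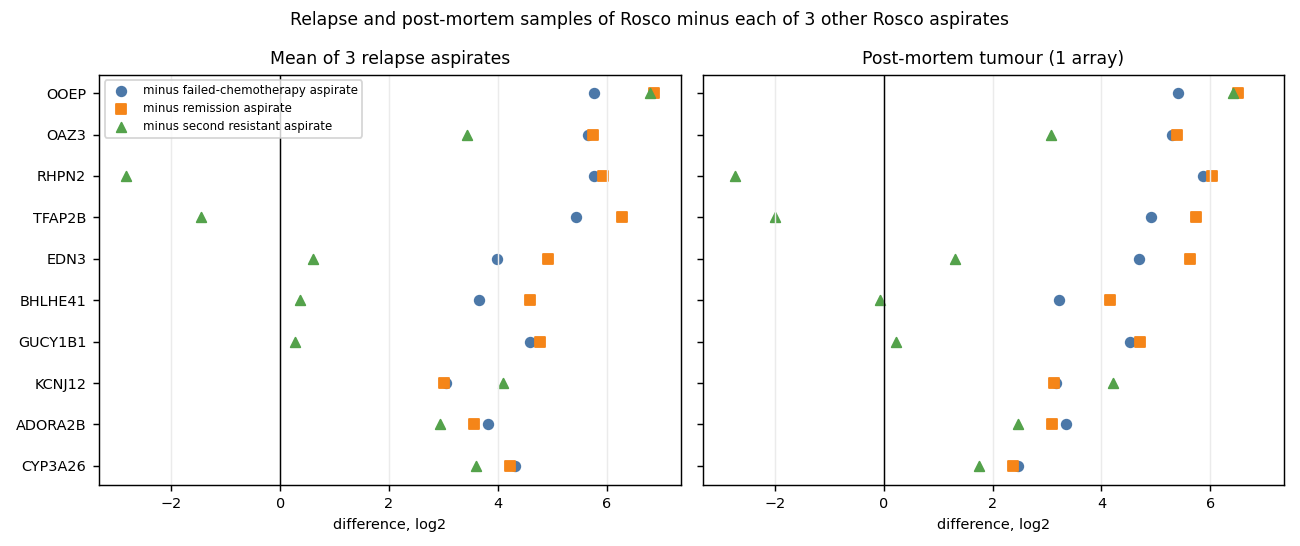
Differences on the log2 scale for the 10 genes, between the mean of the 3 relapse aspirates (left) or the 1 post-mortem array (right) and the failed-chemotherapy (circles), remission (squares) and second resistant aspirate (triangles) of Rosco. The circles and squares lie right of 0 for all 10 genes on both sides, while the triangles of RHPN2 and TFAP2B lie left of 0 on both sides and that of BHLHE41 lies just left of 0 (−0.06) on the right. Points are measured differences, also where the other aspirate was dim. These are all points of CYP3A26, the circles and squares of TFAP2B, the squares of EDN3 and the triangles of KCNJ12. For CYP3A26 on the right the bounds are only 1.22-fold (circle) and 1.15-fold (square), with no bound for the triangle.

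The failed-chemotherapy and remission aspirates were the lowest arrays for several of these genes. For RHPN2, BHLHE41, GUCY1B1 and ADORA2B both lay below the other 13 arrays, a pattern that 3.17% of all targets showed. These arrays took part in choosing the genes, so nothing is read from that count. The summed level of T and NK cell markers was high in the same aspirates. The 7 of 17 such markers with a symbol summed to 23.0 and 15.4 there, against 1.72 to 3.30 in relapse, 14.1 in the Thai biopsy and at most 2.20 in the resistant biopsies. CCL5, a chemokine, carried most of the Thai sum, at 3.59, with CD8A at −1.53 and CD28 at −2.72 in that biopsy. CCL5 stood at 3.37 after failed chemotherapy, 1.73 in remission and 0.32, 1.42 and 0.56 in relapse. CD8A, a cytotoxic T cell marker, stood at 3.21 and 2.89 and the costimulator gene CD28 at 1.00 and 1.41 in these aspirates, against −3.97 to −3.04 and −4.52 to −3.66 in relapse. The natural killer marker NCR1 was not well above background in either (−6.32 and −5.73), and CD4 (−2.98 and −2.11) was near its relapse levels (−3.18, −2.72 and −2.66). B cell markers summed to 5.55 and 4.19 in these aspirates, below relapse. The part of cell makeup in the 10 genes' levels was not tested.

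The post-mortem tumour lay within 1 log2 unit of the relapse mean for 9 of 10 genes, as did 87.6% of all targets, and CYP3A26 was the exception. That count is near the share over all targets and is no result about these genes. The tumour was within the range of the 3 relapse aspirates for RHPN2, GUCY1B1 and KCNJ12, above it for EDN3 and below it for the other 6. Of all targets, 37.1% lay below all 3 relapse aspirates and 31.8% above. Against skin it was above both samples for 7 of 10 genes (47.5% of targets). The differences from the relapse mean ran from −1.86 for CYP3A26 to 0.71 for EDN3. No test was made, since the relapse values chose the genes.

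The 9 arrays that played no part in the choice were skin (2), resistant biopsies (4), the Thai biopsy, the MalcolmX aspirate and the post-mortem tumour. They were fitted together with limma. A target was tested if all arrays of either group had it on, and p-values were adjusted over all of them. Between resistant biopsies and skin none of the 9 genes tested passed the threshold of 0.05, where 103 of 23882 targets did (0.431%). That count was 5 without the Jake biopsy, 11 without that of MalcolmX, 21 without that of Dog Y, 3117 without that of Rosco, 324 without MalcolmX skin and 319 without Rosco skin. Of the 9, BHLHE41 alone had an unadjusted p under 0.05, as had 14.8% of targets. CYP3A26 was dim in both groups and not tested. TFAP2B and EDN3, each dim in 1 biopsy, entered through the skin samples. BHLHE41 had a mean of 3.54 in biopsies (SD 0.37, n = 4) against 2.25 in skin (SD 0.82, n = 2). The limma difference was 1.29 (SE 0.46, adjusted p = 0.312). Its groups did not overlap, as was the case in this direction for 18.1% of targets. OOEP had a mean of 3.35 in biopsies (SD 3.04, n = 4) against −0.55 in skin (SD 4.33, n = 2). Its difference, 3.91 (SE 2.38), had an interval from −1.85 to 9.67 and an adjusted p of 0.421 by limma. The Rosco biopsy was far below the other 3 biopsies, and the skin samples were far apart. Without the Rosco biopsy OOEP differed by 5.41 (SE 1.72, adjusted p = 0.0880 by limma), the adjusted p over the alternatives running from 0.0880 to 0.980, and within slide 1 by 0.37. In the dogs with both tissues OOEP was higher in the biopsy, by 2.27 in MalcolmX and 2.46 in Rosco. The other 7 genes differed by −1.38 (TFAP2B) to 1.5 (OAZ3), with adjusted p between 0.428 and 0.972. The median difference of the 9 genes was 0.82 and that of all targets 0.25, and 6 of 9 were higher in the biopsies, as were 60.9% of targets.

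The single post-mortem array was set against the 4 resistant biopsies on the assumption that it varies like the replicated groups. None of the 10 genes passed by limma, where 2 of 27047 targets did (0.00739%; 0 without any 1 of the skin samples or biopsies), and of the genes on in all 4 biopsies OAZ3 alone had an unadjusted p under 0.05 (6.22% of targets). OAZ3 was higher after death by 3.50 (SE 1.20, interval 0.61 to 6.38, adjusted p = 0.742) and above all 4 biopsies. CYP3A26, EDN3 and TFAP2B were not on in all 4 biopsies and entered the test only because they were on in the post-mortem tumour. For CYP3A26 the readings give only the bound of at least 1.01-fold, so no difference is given. EDN3 read above all 4 biopsies, with a difference of 2.59 (SE 1.59, adjusted p = 0.897 by limma), the Dog Y reading being dim. With OAZ3 that makes 3 of 10 genes above all biopsies, against 30.4% of targets tested and 25.9% of all 36460. As 2 of these 3 entered through the post-mortem array, nothing is read from the count. BHLHE41 was below all 4 biopsies (difference −0.84). The share of targets below all 4 was not counted, so nothing is read from this place. For RHPN2, TFAP2B, GUCY1B1, KCNJ12, ADORA2B and OOEP the post-mortem value lay inside the range of the biopsies and differed from their mean by 0.31 to 1.49. The intervals are wide, so a missed threshold does not show equal levels: for RHPN2 the interval ran from −5.89 to 7.25. Higher after death were 9 of 10 genes, as were 62.9% of targets, with a median difference of 0.71 over the 10 genes and 0.26 over all targets. These include the 3 genes that entered through the post-mortem array, so they support nothing about the 10.

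For the sensitive Thai biopsy against the resistant biopsies limma called 0 of 26305 targets (0.0%), and 0 of the 9 genes tested. Without adjustment 879 targets had p under 0.05 (3.34%), and of the 9 genes BHLHE41 did. It was below all 4 resistant biopsies with a difference of −2.66 (SE 0.60, interval −4.11 to −1.21), with an adjusted p of 0.945 by limma. OAZ3 was above all 4, as were 20.5% of targets, by 1.77 on average (SE 1.19, interval −1.10 to 4.64). The share of targets below all 4 was not counted, so nothing is read from the place of BHLHE41. EDN3 differed by −2.04 (SE 1.59), inside the range of the biopsies. EDN3 and TFAP2B, each dim in 1 resistant biopsy, entered this test only through the Thai array. KCNJ12 was 2.15 higher (SE 2.73), with an interval from −4.42 to 8.71. The remaining genes differed by −0.08 (RHPN2) to 1.20 (TFAP2B). In all 6 of 9 were higher (55.0% of targets), with a median of 0.77 against 0.08 over all targets. The post-mortem tumour and the Thai biopsy lie on the same slide, and there the Thai biopsy differed from it by −1.73 for OAZ3, −4.63 for EDN3 and 1.79 for KCNJ12, with CYP3A26 on after death only.

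**Figure D4:**
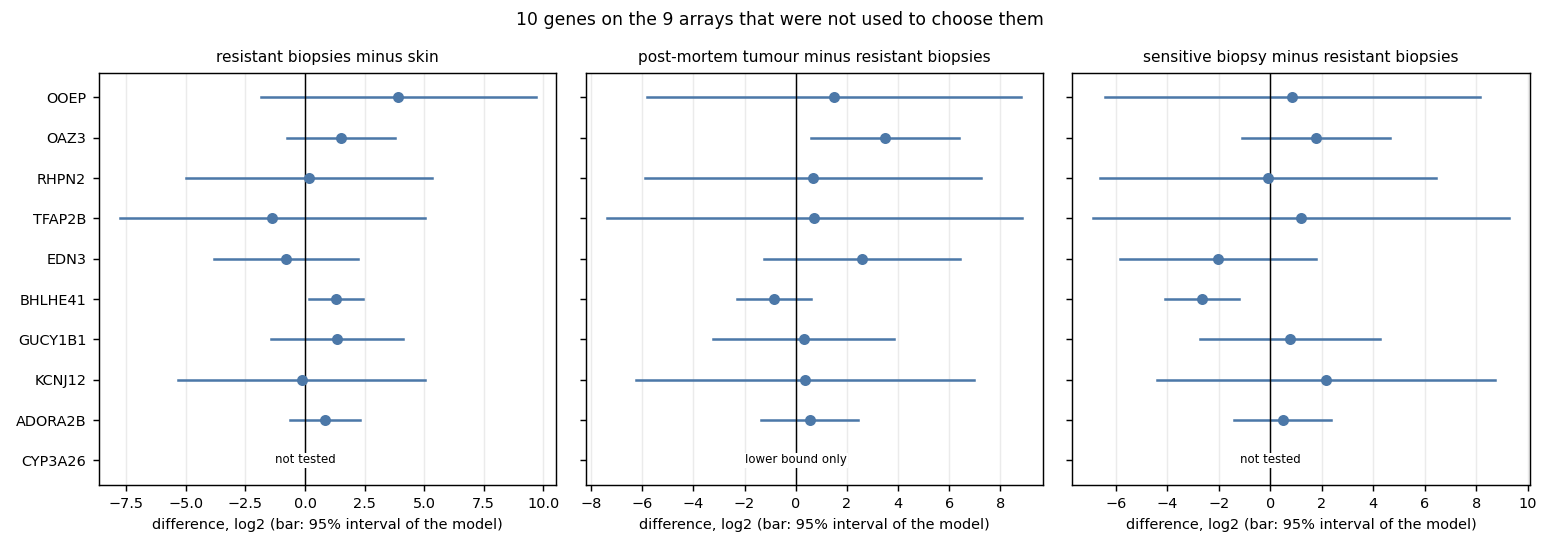
Difference on the log2 scale (points) with the 95% interval of the linear model (bars) for the 10 genes in 3 comparisons among the 9 arrays that were not used to choose them. Each horizontal axis has its own scale. No gene passed the adjusted threshold of 0.05 in any panel, and the bars that miss 0 (BHLHE41 on the left and right, OAZ3 in the middle) are unadjusted. CYP3A26 is not drawn, since its probe was dim in every biopsy and skin sample.

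Other genes of the same pathways gave no call in these comparisons either. Of all targets tested only 0.431% were called between biopsies and skin, and fewer in the other comparisons. Lists this short would hold about no call in any case, so nothing is read from this about the pathways. In the lists that held a testable gene beside the 10, 0 such genes were called higher or lower by limma in any of the 3 comparisons. In the cyclic GMP list 7 of 11 further genes were tested between biopsies and skin (median difference 0.10), in the P450 list 7 of 8 (median −0.32), and in the endothelin list 4 of 4 (median −1.64). In the adenosine list 4 of 4 were tested (median 0.79) and in the polyamine list 4 of 4 (median 0.06).

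In MalcolmX the aspirate after metformin was set against the biopsy taken before it, and CYP3A26 was dim in both. EDN3 changed by −1.15, OAZ3 by 0.77, BHLHE41 by −0.41 and OOEP by 0.17, and the other 5 genes by −0.23 to 0.27. From the failed-chemotherapy to the remission aspirate of Rosco, OOEP changed by −1.10, EDN3 by −0.94, BHLHE41 by −0.94 and TFAP2B by −0.83, where TFAP2B was dim in both and EDN3 in the remission aspirate. These are pairs of single arrays with no replicate check.

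Over the 9 arrays that did not choose the genes, RHPN2 and TFAP2B had r = 0.905, and RHPN2 and TFAP2B had r of 0.654 and 0.627 with GUCY1B1. OOEP had r = 0.787 with KCNJ12 and 0.794 with ADORA2B, and KCNJ12 and ADORA2B had r = 0.619. CYP3A26 was on in only 1 of these arrays, so no r is given for it. These are descriptions over arrays that share dogs and slides.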

How the data were processed

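The deposited files hold spot intensities that the authors extracted with Agilent Feature Extraction 11.0.1.1, per the file headers. Background steps behind the processed intensity are not given in the sources used here. Per the labels' protocols RNA had an integrity number of at least 8.0. The deposited series table holds intensities too, and 678300 of 678300 cells equal spot median minus background median within 0.01. Flags of 0 or 1, per the file headers, mark outlying, saturated and well-above-background spots. Here the log2 of the processed intensity minus that of the 75th percentile of the array (367 to 1241) was used. Outlying spots (2 to 50 per array) were left out, 0 were saturated, and spots of a probe were averaged. Targets with a value on every array numbered 36460, each read from its brightest probe on average. The lowest signal well above background was −6.86 to −5.50. RefSeq identifiers named 2186 of 43603 probes (5.01%). The array grid and the reference table are of different assemblies, so no positions are given, and sequences were not used here.

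Differences were tested with limma 3.58.1 in R 4.3.3 on the 9 arrays that did not choose the genes, two-sided, with Benjamini-Hochberg adjustment. The code was tested on simulated data. The 10 genes, the pathway and marker lists and the comparisons were chosen with earlier results of these data known. The text names the 10 genes, listed pathway genes with a symbol, and genes from the 3 with the highest Pearson r to each over 15 arrays (on in at least 3), of which 1 is not reported here. Alternatives were other scalings, background corrections, filters, probe rules, fits, blocks and left-out samples. The number of arrays limits the precision.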

Additional observations from a re-analysis of the deposited data

Results flagged for a closer look

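OOEP in the Rosco biopsy, at −1.15, stood apart from the other resistant biopsies, with a gap of 5.50 in a range of 6.59. The same 4 biopsies were examined for each of the 10 genes. As these checks share arrays, 1 such case cannot be set against the 1 in 20 that chance gives per check. The same biopsy was rich in gland transcripts and poor in B cell markers.

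ADORA2B was 1.61 higher in the biopsy than in the skin of MalcolmX and 0.57 lower (−0.57) in the biopsy than in the skin of Rosco. Each is 1 pair of arrays, and the difference between the dogs was not tested. For MalcolmX the skin was on slide 1 and the biopsy on slide 2, and for Rosco the reverse. Slide and dog thus cannot be told apart here. The Rosco biopsy was also rich in gland transcripts.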

How the results depend on the processing

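The resistant biopsy and skin comparison had 103 called targets, and that number depended on the processing: 8 with normexp background, 55 on the deposited series table, 65 without a filter on dim probes, 648 with all 15 arrays, 32 with slide as a fixed block, 40 within slide 1 and 168 with dog as a random block. Leaving out 1 sample gave 5 (without the Jake biopsy) to 3117 (without the Rosco biopsy), with 11 without the MalcolmX biopsy, 21 without the Dog Y biopsy, 324 without MalcolmX skin and 319 without Rosco skin. The post-mortem comparison had 2 and gave 0 with quantile normalisation, median centring, normexp, the series table, the mean over probes, only the groups compared and each left-out sample (0 to 0), and 1 with all 15 arrays. The Thai comparison had 0 and gave 11 with all 15 arrays. For the 10 genes, 449 of 475 values under alternatives kept direction and side of the threshold, 26 turned sign, and the lowest adjusted p was 0.0751 by limma. Between biopsies and skin, within slide 2 OAZ3 turned to −0.87, RHPN2 to −1.16, EDN3 to 1.00 and KCNJ12 to 4.60, and median centring turned KCNJ12 to 0.11. RHPN2 turned to −0.43 without MalcolmX skin, −1.05 without the Rosco and −0.37 without the Dog Y biopsy. KCNJ12 turned to 2.54 without MalcolmX skin, 0.02 without the Jake and 1.1 without the Rosco biopsy, and TFAP2B to 0.69 without the Jake biopsy. After death, dog as a random block turned RHPN2 to −0.29 and TFAP2B to −0.26, and normexp turned TFAP2B to −0.10. Without the Jake biopsy RHPN2 turned to −0.82, TFAP2B to −1.34 and GUCY1B1 to −0.55, and without the Rosco biopsy OOEP to −0.010 and KCNJ12 to −0.89. In the Thai comparison the mean over probes turned RHPN2 to 0.17, leaving out the Rosco biopsy turned OOEP to −0.65 and RHPN2 to 1.13, leaving out Dog Y turned RHPN2 to 0.45, and leaving out Jake turned TFAP2B to −0.88 and GUCY1B1 to −0.092. Over all left-out samples these results otherwise reached: between biopsies and skin, RHPN2 1.66, TFAP2B −2.63 and KCNJ12 −2.84. After death they reached 2.19 for OOEP, 1.90 for RHPN2, 1.71 for TFAP2B, 0.75 for GUCY1B1 and 1.09 for KCNJ12. In the Thai comparison they reached 1.55 for OOEP, −1.58 for RHPN2, 2.17 for TFAP2B and 1.21 for GUCY1B1. The cause was not tested. Slide and dog as random blocks were added after seeing the data, and slide as a fixed block could not be fitted for the post-mortem and Thai arrays. MalcolmX and Rosco gave both skin and a biopsy, and these pairs enter through dog as a random block. Signal over background limits CYP3A26, for which 11 arrays give only a bound.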
